A study of Mus musculus with 4 samples.

Results

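The genes described here are 8 noncoding RNA genes read in cultures labelled as CD4+ T cells, WT or with a T-cell deletion of the kinases MEK1 and MEK2 (Mek1/2-tKO): the nuclear RNAs Malat1 and Neat1, the small nucleolar RNA (snoRNA) hosts Gas5, Snhg1, Snhg8 and Snhg12, and the microRNA hosts Mir155hg and Mir17hg. They were taken by name from the 54752 genes listed, and all 8 had enough counts to be tested among 14330 tested genes. Naïve CD4+ T cells from mouse spleen were cultured for 3 days under conditions that favour T follicular helper (Tfh) cells, and the mRNA of viable cells was sequenced in 2 WT and 2 Mek1/2-tKO libraries. Both genotypes were stimulated with plate-bound anti-CD3 and with anti-CD28, given IL-6, and held with neutralizing antibodies to TGF-β, IL-4, IFN-γ and IL-2. Mek1/2-tKO mice (C57BL/6 background) were Cd4-Cre+, fl/fl for Map2k1, which codes for MEK1, and fl/fl for Map2k2, which codes for MEK2. Cd4-Cre acts from the thymus onward in all T cells that pass through a CD4-expressing stage. Whether WT cells carried Cre or floxed alleles, and the age of the mice, are not given in the sources used here. Nor is it given whether replicates came from separate mice or cultures, so p values measure only the spread between these libraries, which may be technical. The libraries labelled Mek1/2-tKO went against their labels in part: Map2k1 RNA was lower but present, Map2k2 RNA was not called lower, Cd4 RNA was much lower than in WT, and markers of other cell types were higher, with the values given below.

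Malat1 and Neat1 are long RNAs that stay in the nucleus, where Malat1 gathers in splicing speckles and Neat1 is the scaffold of paraspeckles. The snoRNA hosts carry snoRNAs, guides for the modification of ribosomal RNA, in their introns. Their spliced transcripts code for little or no protein, often start with a run of pyrimidines like the mRNAs of the translation machinery (5′ TOP mRNAs), and are removed by nonsense-mediated decay when ribosomes engage them. Mir155hg and Mir17hg are precursors that Drosha and Dicer cut to miR-155 and to the miR-17-92 cluster, microRNAs of activated lymphocytes that promote Tfh cells. The gene counts cover the host transcripts and not the mature microRNAs.

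The mature microRNAs of the hosts are shown because their seeds, bases 2 to 8 in capitals, decide which mRNAs they pair with. The sequences are RefSeq's for GRCm38.p6. Mir155hg gives miR-155-5p (chr16:84714143-84714165, + strand), and Mir17hg gives the other 6 from 1 stretch of chromosome 14, in the order miR-17, 18a, 19a, 20a, 19b and 92a.
miR-155-5p: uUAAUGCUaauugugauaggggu
miR-17-5p: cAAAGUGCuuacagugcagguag
miR-20a-5p: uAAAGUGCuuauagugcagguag
miR-18a-5p: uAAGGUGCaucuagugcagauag
miR-19a-3p: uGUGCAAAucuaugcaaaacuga
miR-19b-3p: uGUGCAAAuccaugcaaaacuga
miR-92a-3p: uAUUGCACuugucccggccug
miR-17-5p and miR-20a-5p share the seed AAAGUGC, and miR-19a-3p and miR-19b-3p share GUGCAAA. The seeds of miR-155-5p, miR-18a-5p and miR-92a-3p were each found in 1 of the microRNAs listed for these hosts.

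The starts of the snoRNA hosts are shown because a pyrimidine run at the start marks a 5′ TOP transcript. Each line holds 20 bases before and 30 bases from the start that RefSeq gives (GRCm38.p6) onward, with the longest run of C and T in capitals.
Gas5 (chr1:161035146-161035195, + strand): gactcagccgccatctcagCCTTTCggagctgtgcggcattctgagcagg
Snhg1 (chr19:8723467-8723516, + strand): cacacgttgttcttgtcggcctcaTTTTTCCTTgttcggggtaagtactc
Snhg8 (chr3:123508307-123508356, - strand): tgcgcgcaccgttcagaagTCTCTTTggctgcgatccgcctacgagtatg
Snhg12 (chr4:132308658-132308707, + strand): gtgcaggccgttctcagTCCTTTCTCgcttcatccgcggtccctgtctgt
The runs had 6 bases in Gas5, 9 in Snhg1, 7 in Snhg8 and 9 in Snhg12. A run at least as long lay anywhere in these 50 bases in 43.0% of all 32851 windows for Gas5. The share was 28.6% for Snhg8 and 12.6% for Snhg1 and Snhg12, so that runs of these lengths were not rare. The share of windows with such a run at the start itself was not counted. In Gas5, Snhg8 and Snhg12 the run spans the start itself, and in Snhg1 it begins 4 bases after it. The longest run of Malat1, which RefSeq starts at the first base of the counted gene, had 4 bases. The Gas5 window lies 744 bases inside the counted gene, and another RefSeq start of Gas5, 179 bases inside, had a run of 3 bases. The RefSeq windows of Mir155hg and Mir17hg lie 9856 and 1511 bases inside the counted genes, so that they do not cover the annotated starts and are not shown. In windows of 250 bases before and 50 bases after the start, both strands were searched for CACGTG (E-box, MYC; in 7.15% of all windows), TGACTCA (AP-1; 5.20%), CCGGAAG (ETS; 8.86%) and TTTCGCG (E2F; 0.849%). Snhg1 held TTTCGCG, and none of the other motifs was found in the windows of these genes. The pyrimidine motifs CTTTCC (2.40% of windows) and CTCTTCC (0.974%), searched on the forward strand in the 50 bases around the start, gave CTTTCC in the internal window of Mir155hg only.

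The counts of a library summed to 16330802 to 18931090. Map2k1 had 182 and 187 CPM (the depth-scaled count, on TMM-normalized library sizes) in WT and 98.0 and 105 CPM in Mek1/2-tKO, a log2 difference of -0.86 (adjusted p = 1.29e-06 in edgeR's quasi-likelihood test). For Map2k2 it was 0.15 (adjusted p = 0.126 in the same edgeR test), and a count over the whole gene does not separate transcripts with and without the floxed exons. Markers of other cell types moved with the genotype. By the call rule given below, 19.3% of all genes tested were higher and 16.4% lower. Of 10 B-lineage markers 10 rose in Mek1/2-tKO cells, with a summed level of 561 to 568 CPM in WT and 3254 to 3340 CPM in Mek1/2-tKO, as were 8 of 8 NK-cell markers (117 to 119 against 685 to 745 CPM), 8 of 8 tested myeloid markers of 10 listed (75.6 to 78.2 against 336 to 411 CPM), both CD8 T-cell markers (59.3 to 67.4 against 214 to 238 CPM) and 3 of 3 tested gamma-delta T-cell markers of 6 listed (16.6 to 19.6 against 165 to 172 CPM). The gamma-delta list shares Blk with the B-lineage list. In WT the myeloid markers S100a8 and Adgre1 had 0 CPM, S100a9 had 0.103 and 0.104 CPM, and the gamma-delta marker Sox13 had 0.103 and 0.207 CPM. Such genes passed the count filter only through their Mek1/2-tKO libraries, so that only a higher call was open to them. Cst3 made up most of the myeloid sum, with 69.0 and 67.9 CPM in WT and 377 and 309 CPM in Mek1/2-tKO. Of 10 alpha-beta T-cell markers 5 were lower, 0 higher and 5 not called (2403 to 2416 against 1505 to 1657 CPM). The log2 fold changes of those not called were 0.24 for Cd3g, 0.20 for Cd3d, 0.16 for Trbc1, -0.03 for Trbc2 and -0.54 for Lck. Among the lower ones Trac had -0.98, and Cd4 had the largest fall of the list (-3.73). Cd4, which defines the labelled cell type, went from 293 CPM in WT to 22 CPM in Mek1/2-tKO, and Cd79a, a subunit of the B-cell receptor, from 57.9 to 622 CPM. The part of this shift in the differences below was not tested, and in bulk libraries fewer cells of a type and less RNA per cell cannot be told apart.

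Of the 8 genes, 4 were higher in Mek1/2-tKO than in WT cells (Neat1, Snhg8, Malat1 and Snhg12) and 0 were lower, where a call needed a 1.5-fold change or more and, in edgeR's quasi-likelihood test, an adjusted p under 0.05. Over all tested genes these thresholds called 19.3% higher and 16.4% lower. Gas5 passed the p threshold but not the fold, and Snhg1, Mir155hg and Mir17hg passed neither. Both Mek1/2-tKO libraries lay above both WT libraries for 7 of the 8 genes, against 39.5% of all genes tested, and below them for 1, Mir17hg, against 38.8%. Together the 8 genes took 0.0601 to 0.0611% of the counts in WT and 0.0821 to 0.0883% in Mek1/2-tKO. The long noncoding classes of GENCODE M21 as a whole took 0.563 to 0.568% and 0.657 to 0.682%. Of 679 tested genes of these classes 27.2% were higher and 7.36% lower, with a median log2 fold change of 0.40, while 11558 protein-coding genes had 17.2% higher and 18.7% lower and a median of -0.05. The direction of 7 of the 8 genes was thus also the more frequent one in their gene class.

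**Figure D1:**
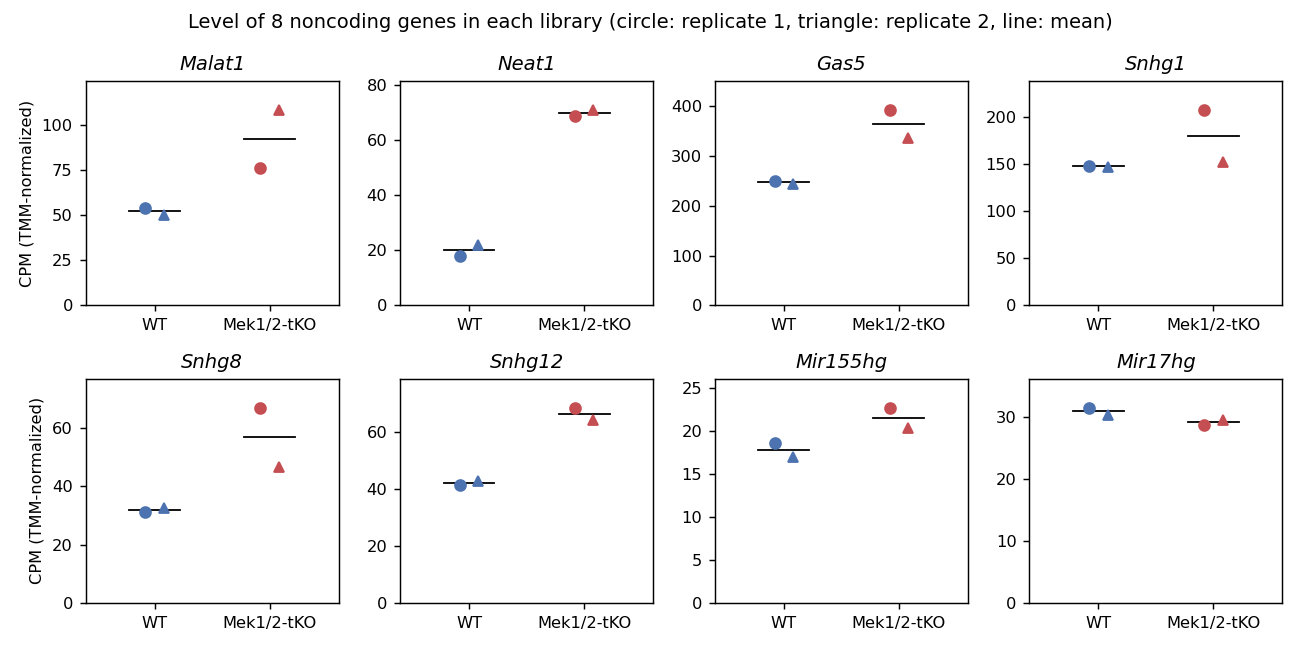
Level of each of the 8 genes in CPM (y axis, from 0, one scale per gene) in WT (blue) and Mek1/2-tKO (red), with a circle for replicate 1, a triangle for replicate 2 and a line at the mean of 2 libraries. Neat1 goes from 17.9 and 21.9 to 68.7 and 70.8 CPM with little spread, Malat1 and Snhg8 spread widely in Mek1/2-tKO, and Mir17hg stays between 28.7 and 31.4 CPM.

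Neat1 had the largest difference of the 8 genes. Neat1 (ENSMUSG00000092274.3, chr19:5824708-5845478, - strand) had 349 and 422 counts in WT and 1063 and 1329 counts in Mek1/2-tKO, or 17.9, 21.9, 68.7 and 70.8 CPM. The genotypes did not overlap, and the 2 Mek1/2-tKO libraries were within 0.04 of each other on the log2 scale. Its log2 fold change was 1.81 (standard error 0.12, adjusted p = 4.18e-08 in edgeR's quasi-likelihood test), a 3.50-fold higher level with a 95% interval of 2.92 to 4.20. The call held in all 11 alternative tests, with log2 fold changes from 1.67 upward.

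Malat1 (ENSMUSG00000092341.2, chr19:5795690-5802672, - strand), which lies beside Neat1 on the same strand, had 1048 and 964 counts in WT and 1175 and 2026 counts in Mek1/2-tKO. On the CPM scale these were 53.8, 50, 75.9 and 108. The genotypes did not overlap, but the second Mek1/2-tKO library was well above the first. Its log2 fold change was 0.83 (standard error 0.14, adjusted p = 1.88e-04 in edgeR's quasi-likelihood test), and without the second Mek1/2-tKO library it was 0.54, under 1.5-fold. The difference of 0.51 (log2) between the Mek1/2-tKO replicates was at the 98.4th percentile of 9606 genes, whereas the median absolute difference between these libraries was 0.141. The WT replicates of Malat1 differed by -0.11. Neat1 had 0.333 and 0.438 counts for each count of Malat1 in WT, and 0.905 and 0.656 in Mek1/2-tKO. The ratio thus moved toward Neat1 in both Mek1/2-tKO libraries. The ratio was not tested. Malat1 shares 12.6% of its exon bases with genes on the opposite strand, and whether the counting used the strand is not given in the sources used here.

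Genes for proteins of the bodies that hold these RNAs were called lower about as often as all genes tested (16.4%). They were called higher less often than all genes tested (19.3%). Of 12 paraspeckle protein genes 0 were higher and 2 lower, with a median log2 fold change of -0.36 against 0.02 over all genes. The lower ones were Rbm14 (-0.80) and Sfpq (-0.78), RNA-binding proteins of the paraspeckle that bind or organize around Neat1. Nono, the partner of Sfpq, had -0.26 and was not called. Only Nudt21 (0.02) of the 12 lay above 0, and most of the falls were under the fold threshold. Of 14 nuclear speckle protein genes 1 was higher and 3 lower (median -0.08). Srrm1 (-1.04) and Srrm2 (-0.91), splicing coactivators, were lower together with Son (-0.68), a scaffold of speckles, and Clk1 (0.76), a kinase of splicing factors, was higher.

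The log2 fold changes of the 4 snoRNA hosts ran from 0.28 to 0.83. Gas5 (ENSMUSG00000053332.13, chr1:161034422-161038539, + strand), a host of box C/D snoRNAs whose RNA accumulates when growth stops, had 4855 and 4720 counts in WT and 6072 and 6312 counts in Mek1/2-tKO. On the CPM scale these were 249, 245, 392 and 336. The genotypes did not overlap. The log2 fold change was 0.56 (standard error 0.08, adjusted p = 7.41e-05 in edgeR's quasi-likelihood test), a 1.47-fold level with a 95% interval of 1.30 to 1.67, so that Gas5 differed beyond the spread of the libraries but stood just under the fold required for a call. It passed that fold without the second Mek1/2-tKO library (0.66).

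Snhg12 (ENSMUSG00000086290.9, chr4:132308623-132311024, + strand) hosts both H/ACA and C/D box snoRNAs. It had 806 and 825 counts in WT and 1058 and 1202 in Mek1/2-tKO, or 41.4, 42.8, 68.3 and 64.0 CPM. Replicates were close in both genotypes and did not overlap between them. The log2 fold change was 0.65 (standard error 0.10, adjusted p = 1.08e-04 in edgeR's quasi-likelihood test), which lay just above the fold threshold and fell under it with scaling by library size alone (0.57).

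Snhg8 (ENSMUSG00000104960.1, chr3:123507552-123508404, - strand) is a host of the H/ACA snoRNA Snora24. It had 608 and 629 counts in WT and 1037 and 880 in Mek1/2-tKO, or 31.2, 32.6, 67.0 and 46.9 CPM. Both Mek1/2-tKO libraries were above WT, the first by far. The log2 fold change was 0.83 (standard error 0.15, adjusted p = 3.08e-04 in edgeR's quasi-likelihood test), and without the first Mek1/2-tKO library it was 0.56, under 1.5-fold. The replicate difference of -0.52 (log2) was at the 1.19th percentile of the 9606 genes, the opposite side from Malat1.

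Snhg1 (ENSMUSG00000108414.1, chr19:8723475-8726443, + strand), another C/D box host, had 2891 and 2840 counts in WT and 3214 and 2866 in Mek1/2-tKO. On the CPM scale these were 148, 147, 208 and 153, so that 1 Mek1/2-tKO library was high and the other next to WT. The log2 fold change was 0.28 (standard error 0.11, adjusted p = 0.0501 in edgeR's quasi-likelihood test), with a 95% interval from 1.03-fold to 1.44-fold. It ranged from 0.05 without the first Mek1/2-tKO library to 0.48 without the second, and it was not called in any of 11 alternative tests, whose adjusted p values in edgeR or DESeq2 ran from 2.86e-07 to 0.614. Relative to Gas5, Snhg1 had 0.595 and 0.602 counts per count in WT and 0.529 and 0.454 in Mek1/2-tKO, whereas Snhg12 had 0.166 and 0.175 in WT and 0.174 and 0.190 in Mek1/2-tKO, where 1 Mek1/2-tKO library lay within the WT range.

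Of 13 tested snoRNA hosts, of 18 found and 21 listed, 5 were higher and 0 lower, with a median log2 fold change of 0.56. Over all genes tested 19.3% were higher and 16.4% lower (median 0.02), and over the long noncoding classes 27.2% and 7.36% (median 0.40). Without the 4 hosts above, 9 remained, of which 3 were higher and 0 lower, with a median of 0.47. These were Snhg20 (1.46), Epb41l4aos (0.83) and Dancr (0.63). Snhg20 went from 14.4 and 15.4 to 42.8 and 39.2 CPM, and its log2 fold change was larger than that of any snoRNA host among the 8 genes. Snhg17 pointed the other way with 58.4 and 60.8 CPM in WT and 45.2 and 47.9 CPM in Mek1/2-tKO, a log2 fold change of -0.36 that was under the fold threshold (adjusted p = 0.00895 in edgeR's quasi-likelihood test).

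**Figure D2:**
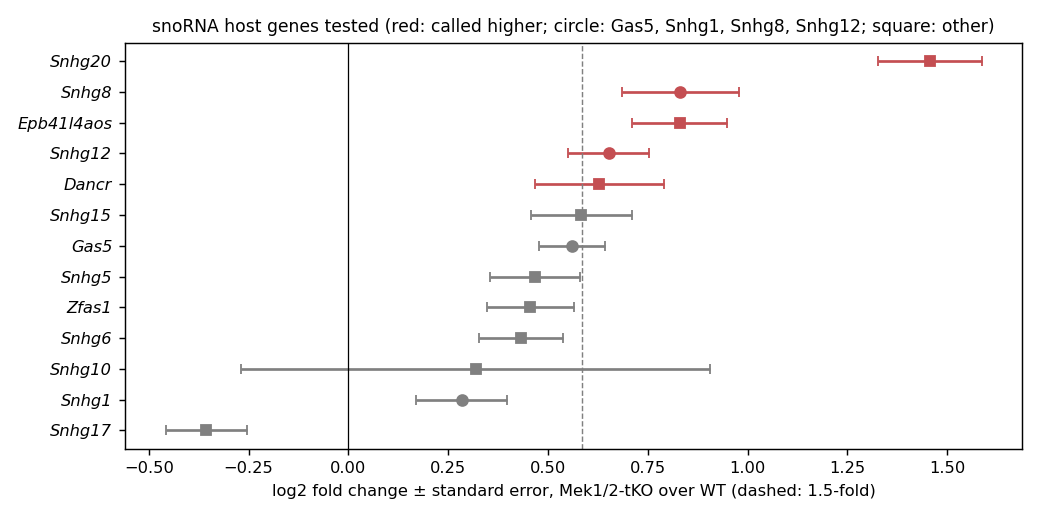
Log2 fold change of Mek1/2-tKO over WT (x axis, bars show the standard error, n = 2 libraries each) for the 13 tested snoRNA hosts, with the 5 called higher in red, the 4 hosts described in full as circles, and the 1.5-fold threshold dashed. Values run from -0.36 for Snhg17 to 1.46 for Snhg20, and 12 of the 13 lie above 0.

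The snoRNA sequences themselves could not be read from these counts. GENCODE annotates 10 snoRNA genes inside Gas5, 8 inside Snhg1, 5 inside Snhg12 and 1 inside Snhg8, all of which overlap exons of the host, and each of them was listed at 0 counts in all 4 libraries. featureCounts leaves out a read that overlaps more than 1 gene unless it is told otherwise, so that these zeros do not measure the snoRNAs. The shared bases made up 17.8% of the exon bases of Gas5, 20.9% of Snhg1, 19.6% of Snhg12 and 15.2% of Snhg8, and reads on them may be missing from the hosts. Fold changes are affected only where the use of these bases differs between the genotypes, which was not tested.

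Most genes that act with the snoRNA hosts were not called, and in the first 2 lists below the shares called did not stand above those over all genes (19.3% higher and 16.4% lower). Of 14 snoRNP protein genes 2 were higher and 1 lower (median -0.10). Nop10 (0.64) and Nhp2 (0.63), core proteins of the H/ACA snoRNP, were higher, and Naf1 (-1.06), an assembly factor of the same particles, was lower, while Fbl, the methyltransferase of the C/D particles, had 0.25. Of 18 5′ TOP mRNAs outside the ribosome 3 were higher and 2 lower (median 0.26). Tpt1 (1.23) and Fau (1.03) were highest, and Pabpc1 (-0.85) and Eif4b (-0.59), which act on mRNA tails and in initiation, were lower. Of 14 genes of nonsense-mediated decay 1 was higher and 4 lower (median -0.33). Upf1 (-0.79), the helicase at the centre of this pathway, was lower, and Rbm8a (0.63), a core protein of the exon junction complex, was higher.

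Neither microRNA host was called. Mir155hg (ENSMUSG00000097418.7, chr16:84703167-84715245, + strand), known as BIC, had 362 and 327 counts in WT and 351 and 383 in Mek1/2-tKO. On the CPM scale these were 18.6, 17.0, 22.7 and 20.4, slightly higher in both Mek1/2-tKO libraries. The log2 fold change was 0.28 (standard error 0.15, adjusted p = 0.126 in edgeR's quasi-likelihood test), with a 95% interval from 0.974-fold to 1.50-fold. With trends on exon length and GC content removed it was 0.06.

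Mir17hg (ENSMUSG00000089726.2, chr14:115042879-115046727, + strand) had 612 and 584 counts in WT and 445 and 552 in Mek1/2-tKO, or 31.4, 30.3, 28.7 and 29.4 CPM. The 4 levels were nearly equal, although the genotypes did not overlap. The log2 fold change was -0.09 (standard error 0.12, adjusted p = 0.570 in edgeR's quasi-likelihood test), with a 95% interval from 0.789-fold to 1.13-fold, so that a change of 1.5-fold in either direction lay outside the interval. Mir155hg had 0.592 and 0.560 counts for each count of Mir17hg in WT, and 0.789 and 0.694 in Mek1/2-tKO. The microRNA genes inside the hosts, 1 in Mir155hg and 6 in Mir17hg, were listed at 0 in all libraries and overlap host exons, as the snoRNA genes do. They cover 4.54% and 15.2% of the exon bases of their hosts.

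Transcription factors described as regulators of these hosts were more often lower than higher. Of 16 such genes 2 were higher and 6 lower, with a median log2 fold change of -0.49. Myc, which activates Mir17hg in many cells, went from 264 and 289 CPM in WT to 112 and 130 CPM in Mek1/2-tKO (log2 fold change -1.19, adjusted p = 1.31e-07 in edgeR's quasi-likelihood test). Irf4, a factor of activated lymphocytes, had 578 and 550 CPM in WT and 186 and 209 CPM in Mek1/2-tKO (-1.51). Nfkb1, a subunit of NF-κB, had -0.97, and Jun, a subunit of AP-1, had 1.71. Of 17 tested MEK-ERK target genes 3 were higher and 9 lower (median -0.71). Beside both lists, 19.3% of all genes tested were higher and 16.4% lower.

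The machinery that makes and uses microRNAs was lower in part. Of 17 tested genes of 18, 0 were higher and 6 lower (median -0.28). Over all genes tested 19.3% were higher and 16.4% lower. Ago2, the slicing Argonaute, went from 148 and 143 CPM to 48.6 and 70.9 CPM (log2 fold change -1.28, adjusted p = 3.01e-06 in edgeR's quasi-likelihood test). Xpo5 (-0.83), which exports precursors from the nucleus, Drosha (-0.73) and Dicer1 (-0.62), the nucleases that cut them, Ago1 (-0.78) and Tnrc6a (-0.63), which silence targets, were the other lower genes. Dgcr8, the partner of Drosha, had -0.37 and was not called.

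Described targets of the microRNAs were called in both directions, as were all genes tested (19.3% higher and 16.4% lower). Of 17 tested miR-155 targets 4 were higher and 4 lower (median 0.12). S1pr1 (3.92), the receptor that guides lymphocytes out of lymphoid organs, and Spi1 (2.33), the transcription factor PU.1 of B and myeloid cells, were highest, followed by Socs1 (1.34), a brake on cytokine signals, and Ifngr1 (0.84). Fosl2 (-1.92) and Jarid2 (-1.30), an AP-1 subunit and a partner of the Polycomb complex, were lowest. Of 14 targets of the miR-17-92 cluster 3 were higher and 1 lower (median -0.21). Socs1, which stands in both lists, Cdkn1a (0.91), an inhibitor of the cell cycle, and Tgfbr2 (0.78), a TGF-β receptor, were higher, and E2f3 (-0.96) was lower. Bcl2l11, a target known from lymphocytes with more miR-17-92, had 0.02 and was not called.

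Sites for miR-155-5p in 3′ UTRs of GENCODE M21 (GRCm38) are shown for 2 targets that were higher and the 2 lowest ones, with the 8 bases that pair with the seed and carry an A opposite its first base in capitals.
Socs1 (chr16:10784203-10784224, - strand): cgctgtgccgcAGCATTAAgtg
Spi1 (chr2:91115426-91115447, + strand): ccgccggccatAGCATTAAccc
Fosl2 (chr5:32156929-32156950, + strand): tagaaacagatAGCATTAAagt
Jarid2 (chr13:44920082-44920103, + strand): gattttgttttAGCATTAAact
The sites were picked from higher and from lower targets, so that finding the 8 bases in both follows from the choice. Jarid2 at a further position and other listed targets also held the 8 bases and are not shown. They were not found in the longest annotated 3′ UTR of S1pr1, the highest target. Over 11501 tested genes with an annotated 3′ UTR, 17.2% were higher and 18.8% lower, with a median log2 fold change of -0.06. The 375 genes with such a miR-155-5p site had 12.5% higher and 24.0% lower and a median of -0.18. The mature microRNAs of either host were not measured. The sets for the seeds of Mir17hg had values like those for miR-155-5p. They were 13.5% and 22.3% (median -0.18) for 512 genes with a site shared by miR-17-5p and miR-20a-5p, 13.7% and 20.6% (-0.15) for 666 genes with a miR-19 site, 14.7% and 23.7% (-0.24) for 190 genes with a miR-18a-5p site, and 15.7% and 26.9% (-0.24) for 324 genes with a miR-92a-3p site. In all these sets the 3′ UTRs were long, with medians of 2436 to 2737 bases against 1151 bases over all genes. The part of UTR length in these values was not tested.

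**Figure D3:**
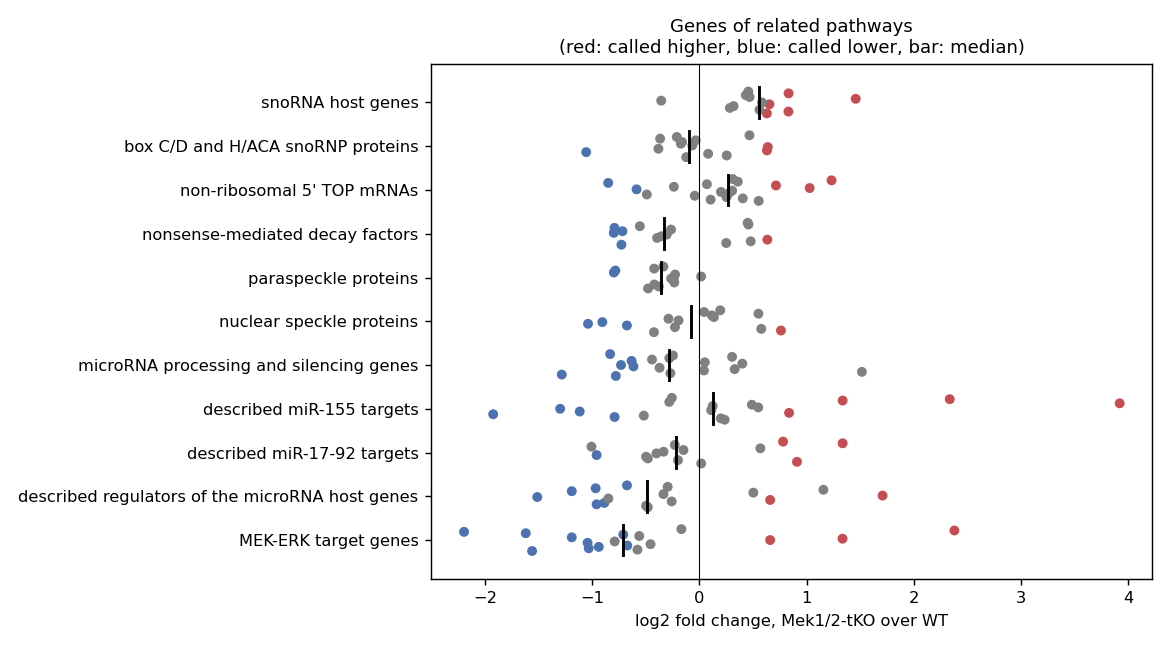
Log2 fold change of Mek1/2-tKO over WT (x axis) for each tested gene of 11 lists, with genes called higher in red, called lower in blue, others in grey, and a black bar at the median of each list. The snoRNA hosts have the highest median (0.56), and the MEK-ERK targets (-0.71) and the regulators of the microRNA hosts (-0.49) the lowest.

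Levels of different genes were compared as RPKM (CPM per kilobase of the deposited exon length). In WT the order was Gas5 (65.7 ± 0.817), Snhg1 (49.8 ± 0.253), Snhg8 (37.4 ± 1.18), Snhg12 (17.5 ± 0.420), Mir155hg (12.4 ± 0.798), Mir17hg (8.72 ± 0.223), Malat1 (7.43 ± 0.383) and Neat1 (0.958 ± 0.135; SD, n = 2 libraries each), and no neighbours overlapped. In Mek1/2-tKO, Gas5 (96.9 ± 10.5) was followed by Snhg8 (66.7 ± 16.7) and Snhg1 (60.7 ± 13.1), which overlapped, and by Snhg12 (27.5 ± 1.27). Mir155hg (15.0 ± 1.12) and Malat1 (13.2 ± 3.24) overlapped too, and Mir17hg (8.22 ± 0.130) and Neat1 (3.36 ± 0.0719) were lowest. Among 9813 annotated long noncoding genes, Gas5 ranked 3 by mean CPM in WT and 2 in Mek1/2-tKO, and Neat1 ranked 40 and 22. The RPKM of Neat1 divides by the 20771 bases of its long form, of which the short form holds only the first stretch. The counted exons of Snhg1, Snhg8 and Snhg12 form 1 block over the whole gene, and those of Gas5 cover 3760 of 4118 bases. For Mir155hg they cover 1433 of 12079 bases. Counted lengths that fill the gene can include introns, so the order by RPKM depends on the annotation, and the part of this was not tested. Malat1 has no ordinary poly(A) tail, and the part of the mRNA kit in its level was not tested.

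The spread between settings differed by gene. Neat1, Snhg1, Mir155hg and Mir17hg kept their call, or the lack of one, in every setting that was run, whereas Malat1, Snhg8, Snhg12 and Gas5 crossed the fold threshold in at least 1. With trends on exon length and GC content removed, the log2 fold changes of the long RNAs Neat1 and Malat1 were 2.41 and 1.21, that of Gas5 was 0.68, and those of Snhg8 and Snhg12 were 0.52 and 0.57.

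**Figure D4:**
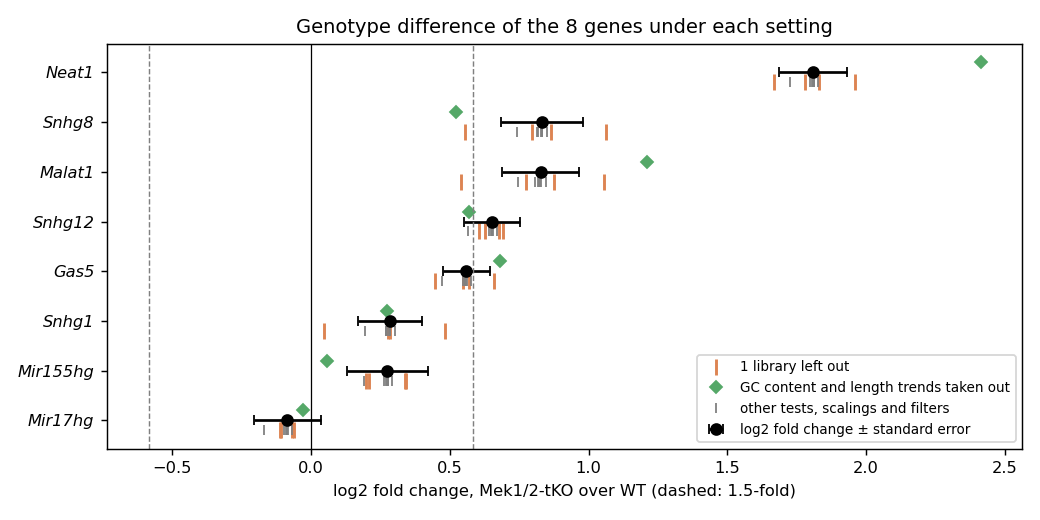
Log2 fold change of Mek1/2-tKO over WT (x axis) for the 8 genes, with black points and bars for the value and its standard error, orange ticks for fits with 1 library left out, grey ticks for other tests, scalings and filters, green diamonds for values with trends on GC content and exon length taken out, and dashed lines at 1.5-fold. Neat1 lies at 1.67 or above in every setting, and Mir17hg between -0.17 and -0.03.

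Genes whose levels over the 4 libraries were most like those of each gene were found among 9605 genes, by the root-mean-square distance of log2 CPM after centring. Malat1 was nearest to Trp53i11 (distance 0.020) and Nprl2 (0.042), which shared its high second Mek1/2-tKO library. Neat1 was nearest to Sytl3 (0.013) and N4bp2l1 (0.055), and only 1 gene lay within 0.05 of it. Snhg8 was nearest to Snord104 (0.027) and Gm45716 (0.028), and Snhg1 to Gm4786 (0.020) and Rps3a1 (0.027), all with a high first Mek1/2-tKO library. Gas5 had Smim7 (0.0057) and Rpl32l (0.0067), and Snhg12 had Frg1 (0.0075) and Cyba (0.0088). Mir155hg was nearest to 2610301B20Rik (0.0091) and Gm5900 (0.011), and Mir17hg to Mat2a (0.0030) and Stk25 (0.0078). The patterns of Mir17hg, Gas5, Mir155hg and Snhg12 were common, with 289, 170, 151 and 129 genes within 0.05. Likeness over 4 libraries thus says little about these genes.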

How the data were processed

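RNA was sequenced as stranded mRNA libraries, 2 labelled WT and 2 labelled Mek1/2-tKO. Per the labels and the study's methods, the authors trimmed reads with Trimmomatic 0.36, mapped them to GRCm38, counted uniquely mapped reads per Ensembl gene with featureCounts (Subread 1.5.1) and deposited raw counts without normalization, 1 library per file. The annotation release and the strand setting are not given in the sources used here. The 8 genes and all lists were chosen with earlier results of these data known.

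R 4.3.3 with edgeR 4.0.16 was used to filter (filterByExpr), normalize (TMM) and test the counts (robust quasi-likelihood, Benjamini-Hochberg adjustment over 14330 genes), without a replicate block. The common dispersion was 0.00842. A call required a change of 1.5-fold or more with an adjusted p under 0.05. CPM and RPKM were computed on TMM-scaled library sizes of the tested genes. Named genes were the 8, Map2k1, Map2k2, Cd4, Cd79a and genes explained by role. To these were added the 2 called genes per list and direction with the largest change among those with an average log2 CPM of 3 or more. For each of the 8 the 2 genes nearest in pattern were also named. Further called genes of lists with few calls, further marker genes and genes with low levels were named after their values were seen. Lists were described by counts and medians, without a set test. Some genes of the lists are counted in them but are not reported here by name. Snhg4, Snhg7, Snhg16, Norad, Mir181a-1hg and Morrbid were not matched and were not analysed here. Sequences are from RefSeq (GRCm38.p6) and GENCODE M21; RefSeq windows matched 7 of the 8 genes. Trends were lowess fits (span 0.3, statsmodels 0.14.6) on GC content and exon length, chosen after seeing the data. The fit was tested on simulated data.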

Additional observations from a re-analysis of the deposited data

How the results depend on the processing

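Over 12 alternatives for each of the 8 genes, none of the log2 fold changes changed direction, 89 of 96 stayed on the same side of the threshold, and 7 crossed it. Leaving out each library in turn gave 0.54 to 1.06 for Malat1, 0.56 to 1.06 for Snhg8 and 0.45 to 0.66 for Gas5, where Malat1 lost its call without the second Mek1/2-tKO library, Snhg8 lost its call without the first (0.56), and Gas5 gained one without the second. With scaling by library size alone Snhg12 had 0.57, and 3 of the 8 genes were higher. With GC content and exon length trends taken out, which has no test, Snhg8 (0.52) and Snhg12 (0.57) fell under 1.5-fold and Gas5 (0.68) rose above it. The cause of these differences was not tested. At a fold change of at least 2, 1725 genes were higher, 1040 lower, and 1 of the 8, Neat1, was higher. DESeq2 called 2444 genes higher and 2129 lower, with 4 of the 8 higher.

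Replicate numbers did not pair the libraries, since deviations of libraries with the same number correlated at -0.03. With the number as a replicate block the calls were 2652 higher and 2300 lower, 4 of the 8 genes were higher, and no call of the 8 genes changed.

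With 2 libraries per genotype 1 library decided the calls of Malat1 and Snhg8. Mir155hg had 362 or fewer counts in a WT library, and the part of this in its standard error was not tested. A count of 0 allows up to 3 counts, 0.154 to 0.194 CPM, for counting error only.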

Other observations

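Other long noncoding and microRNA host genes outside the 8 described above were also tested. Of 13 such genes 6 were higher and 0 lower in Mek1/2-tKO, with a median log2 fold change of 0.53. The long noncoding classes as a whole had 27.2% higher and 7.36% lower (median 0.40), and all genes tested had 19.3% and 16.4%. Among the higher genes, H19, Lncpint, Mir22hg and Mirt1 had low levels, with Mek1/2-tKO means of 1.06, 2.16, 5.18 and 5.89 CPM. Mir142hg, the host of a microRNA found throughout blood cells, had 7.24 and 5.55 CPM in WT and 25.8 and 24.3 CPM in Mek1/2-tKO (log2 fold change 1.97, standard error 0.18, adjusted p = 7.65e-07 in edgeR's quasi-likelihood test). Tug1 had -0.16 and Pvt1, a neighbour of Myc, -0.51, and neither was called. Mitochondrial genes took 1.56 to 1.62% of the counts in WT and 1.99 to 2.24% in Mek1/2-tKO.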
